A study of Mus musculus with 10 samples.

Results

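A set of 10 genes of mast cells and basophils was followed in LSK cells (Lin-cKit+Sca1+ cells, the bone marrow fraction that holds hematopoietic stem cells and early progenitors). They were Tph1 for serotonin synthesis, Hdc for histamine synthesis, Slc18a2 for the loading of both amines into vesicles, Fcer1a and Ms4a2 of the high-affinity IgE receptor, the granule proteases Cpa3, Mcpt8, Prss34 and Gzmb, and the granule proteoglycan core Srgn. The 10 genes were selected on both their function and a measured value, because Tph1 was known to be far lower in 1 of the genotypes compared. All 10 were among the 25078 genes listed and all 10 passed the filter of at least 1 read in any library, which 18747 genes passed. The difference in Tph1 is therefore given as a description, without a test.

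RNA was sequenced from LSK cells of 10 mice, 5 of genotype CM and 5 of genotype CM/miR-126Δ/Δ, each giving 1 library. CM mice carried a Cbfb-MYH11 knock-in allele (Cbfb 56M/+), which encodes the CBFB-SMMHC fusion protein of inv(16) acute myeloid leukemia, together with Mx1-Cre. CM/miR-126Δ/Δ mice carried these alleles and floxed miR-126 on both chromosomes. Both genotypes therefore expressed the fusion after Cre induction, both received poly(I:C), and both were sampled 6 weeks after induction, before leukemia. The mice were young adults of both sexes on a C57BL/6 background, by the study's methods. Mx1-Cre responds to interferon and is not confined to blood cells, and a mouse without the fusion was not analysed here. Total reads per library, the depth behind each value, were between 23649233 and 33202086. A level of 3 reads, taken as the limit of detection, corresponded to 0.0908 to 0.131 CPM (reads per 1000000 reads of a library, with library sizes scaled by TMM), for counting error only.

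The deleted gene was checked first. The hairpin of Mir126a held 4, 5, 0, 2 and 3 reads in CM mice 1 to 5 and 0 reads in each of the 5 CM/miR-126Δ/Δ mice. These are few reads, and CM mouse 3 could not be told from a deleted mouse by this measure. Egfl7, the host gene, was at 114 ± 20.0 CPM among CM mice and 107 ± 12.2 CPM among CM/miR-126Δ/Δ mice (mean ± SD, n = 5 per genotype). Genes of the sort markers were looked at in the same way. Kit was between 702 and 1001 CPM and Ly6a, which encodes Sca1, between 43.6 and 70.3 CPM over the 10 mice. Cd3e of T cells reached at most 2.61 CPM. As cells were sorted on Kit and Sca1, and mast cells express Kit too, these levels do not show that other cells were absent.

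Mast cells and basophils store amines and proteases in granules and release them when antigen crosslinks IgE bound to its receptor. Tph1 is the rate-limiting enzyme of serotonin synthesis outside the nervous system, Ddc completes the synthesis, and Slc18a2 (VMAT2) pumps serotonin and histamine into granules, where serglycin, the product of Srgn, holds amines and proteases. Many of these genes are also transcribed at low level in multipotent progenitors and in progenitors biased to the mast cell and basophil lineage, in which GATA factors are known regulators. In sorted bulk samples, a lower level can come from fewer cells that express a gene or from less RNA in each of them, and these cannot be told apart.

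The sequence removed in CM/miR-126Δ/Δ mice and the start regions of the genes described below are shown here. The mature miR-126a-3p lies at chr2:26591402-26591423 on the plus strand (RefSeq, build GRCm38.p6). It is printed because it is the part that the genotypes differ in, with its seed, bases 2 to 8, in capitals.
miR-126a-3p: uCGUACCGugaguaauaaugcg
Sites for this seed were looked for in the 3′ untranslated regions of GENCODE M1 transcripts, as the 6 letters GGTACG and as the 7 letters CGGTACG on the transcript strand. All 10 genes had such a region and 0 of 10 held either form. Over all 19915 genes with a 3′ region, 3.32% held the 6 letters and 0.256% the 7 letters, so few genes would be found by either. The absence says only that these letters do not stand in these annotated regions. For Tph1 the longest region searched was 517 bases, beside a deposited exon length of 4756 bases. Exon sequence outside the annotated regions was not searched.

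Start regions were taken from RefSeq (GRCm38.p6, 250 bases before to 50 bases after each start), and 12 such regions were matched to the 10 genes. A GATA motif, the letters AGATA or TGATA followed by A or G and searched on both strands, was found in 7 of these 12 regions, beside 29.8% of all 32851 start regions. Counted by gene, 7 of the 10 held it in at least 1 region, beside 33% of all 27025 genes. A match is a description of letters, not a site. The regions of Tph1 and of 5 genes that varied together between mice are printed with the motif in capitals. Mcpt8 is among them and holds no match.
Tph1, chr7:46672488-46672787, minus strand: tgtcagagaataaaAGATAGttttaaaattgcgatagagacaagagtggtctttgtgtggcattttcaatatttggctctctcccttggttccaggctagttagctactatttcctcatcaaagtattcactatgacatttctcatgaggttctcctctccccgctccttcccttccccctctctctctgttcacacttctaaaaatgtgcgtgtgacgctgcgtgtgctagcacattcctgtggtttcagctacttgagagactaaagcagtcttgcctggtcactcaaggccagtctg
Hdc, chr2:126618629-126618928, minus strand: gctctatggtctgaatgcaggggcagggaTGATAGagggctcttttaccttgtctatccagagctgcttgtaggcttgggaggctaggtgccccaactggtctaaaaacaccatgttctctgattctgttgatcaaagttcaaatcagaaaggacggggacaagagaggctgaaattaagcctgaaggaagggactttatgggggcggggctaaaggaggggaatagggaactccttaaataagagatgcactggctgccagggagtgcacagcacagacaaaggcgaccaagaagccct
Ms4a2, chr19:11623670-11623969, minus strand: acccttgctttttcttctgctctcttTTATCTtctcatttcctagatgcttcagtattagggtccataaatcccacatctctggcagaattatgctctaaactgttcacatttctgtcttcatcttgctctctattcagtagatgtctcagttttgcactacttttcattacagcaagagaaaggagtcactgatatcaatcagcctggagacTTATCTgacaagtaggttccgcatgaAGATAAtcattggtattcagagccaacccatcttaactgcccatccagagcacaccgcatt
Cpa3, chr3:20242132-20242431, minus strand: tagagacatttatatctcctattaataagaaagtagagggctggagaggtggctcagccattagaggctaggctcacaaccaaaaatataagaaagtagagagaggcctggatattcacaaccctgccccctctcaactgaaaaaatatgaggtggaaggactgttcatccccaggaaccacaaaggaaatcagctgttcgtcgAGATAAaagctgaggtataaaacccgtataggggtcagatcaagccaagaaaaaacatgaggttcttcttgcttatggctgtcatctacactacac
Prss34, chr17:25298144-25298443, plus strand: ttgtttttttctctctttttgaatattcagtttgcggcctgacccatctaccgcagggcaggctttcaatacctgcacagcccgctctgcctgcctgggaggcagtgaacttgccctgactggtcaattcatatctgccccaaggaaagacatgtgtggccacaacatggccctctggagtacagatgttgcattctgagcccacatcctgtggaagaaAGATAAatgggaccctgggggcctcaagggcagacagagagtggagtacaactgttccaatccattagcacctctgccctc
Mcpt8, chr14:56085148-56085447, minus strand: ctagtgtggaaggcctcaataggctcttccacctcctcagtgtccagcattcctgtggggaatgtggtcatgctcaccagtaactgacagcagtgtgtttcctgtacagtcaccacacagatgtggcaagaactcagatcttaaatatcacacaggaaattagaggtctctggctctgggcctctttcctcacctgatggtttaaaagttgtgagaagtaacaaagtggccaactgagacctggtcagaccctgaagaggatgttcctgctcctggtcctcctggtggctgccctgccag
The Tph1 match starts 236 bases upstream of the start, on the strand of the gene, and a further Tph1 start region, at chr7:46667328-46667627, held none. The Hdc match starts 221 bases upstream. Ms4a2 held 3 matches, which start 224, 37 and 11 bases upstream. The matches of Cpa3 and Prss34 start 46 and 31 bases upstream, close to the start. Slc18a2 and Fcer1a held matches as well, and Mcpt8, Gzmb and Srgn held none in these windows.

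Tph1 was the gene of the 10 that separated the genotypes. It lies at chr7:46644641-46672537 on the minus strand (mm10). Its levels in CM mice 1 to 5 were 2.91, 18.5, 1.31, 1.81 and 4.66 CPM, from 96, 561, 32, 54 and 141 reads. In CM/miR-126Δ/Δ mice 1 to 5 they were 0.445, 0.121, 0.131, 0.475 and 0.329 CPM, from 12, 3, 3, 12 and 8 reads. Every CM/miR-126Δ/Δ mouse was below every CM mouse, CM mouse 2 stood far above the other 4 CM mice, and CM/miR-126Δ/Δ mice 2 and 3 were at the limit of detection. The means were 5.84 ± 7.21 CPM among CM mice and 0.300 ± 0.168 CPM among CM/miR-126Δ/Δ mice (SD, n = 5 each), a ratio of means of 19.5. Fitted by edgeR over all genes, the difference was -4.25 ± 0.741 on the log2 scale (SE).

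CM mouse 2 set much of the size of this difference. Over the other 4 CM mice, Tph1 was at 2.67 ± 1.48 CPM, 8.90 times the mean of CM/miR-126Δ/Δ, and the fitted difference without CM mouse 2 was -3.12. The fitted values ranged from -4.49 to -3.12 when each mouse was left out in turn. The cutoffs taken from the study required p of 0.01 or below, a change of 1.5-fold or more, and a mean RPKM (CPM per kilobase of exon) of 1 or more in 1 genotype. The mean of Tph1 in CM was 1.23 RPKM, and 0.562 RPKM without CM mouse 2, which is below the required level. Over all genes fitted, 54 met the cutoffs (0.288%), 18 of them lower (0.0960%) and 36 higher (0.192%) in CM/miR-126Δ/Δ. This balance turned to 40 higher and 54 lower without CM/miR-126Δ/Δ mouse 4, and was 35 and 33 without CM mouse 2. It moved further to higher genes without CM mouse 3 (101 higher, 27 lower) and without CM/miR-126Δ/Δ mouse 1 (71 higher, 14 lower). Of the 10 genes, 1 met them, Tph1, and since its difference led to its choice nothing is read from that. Complete separation with every CM/miR-126Δ/Δ mouse lower was seen in 99 of the genes fitted (0.528%) and, among the 10, in Tph1, which was chosen on this contrast, so nothing is read from that either.

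**Figure D1:**
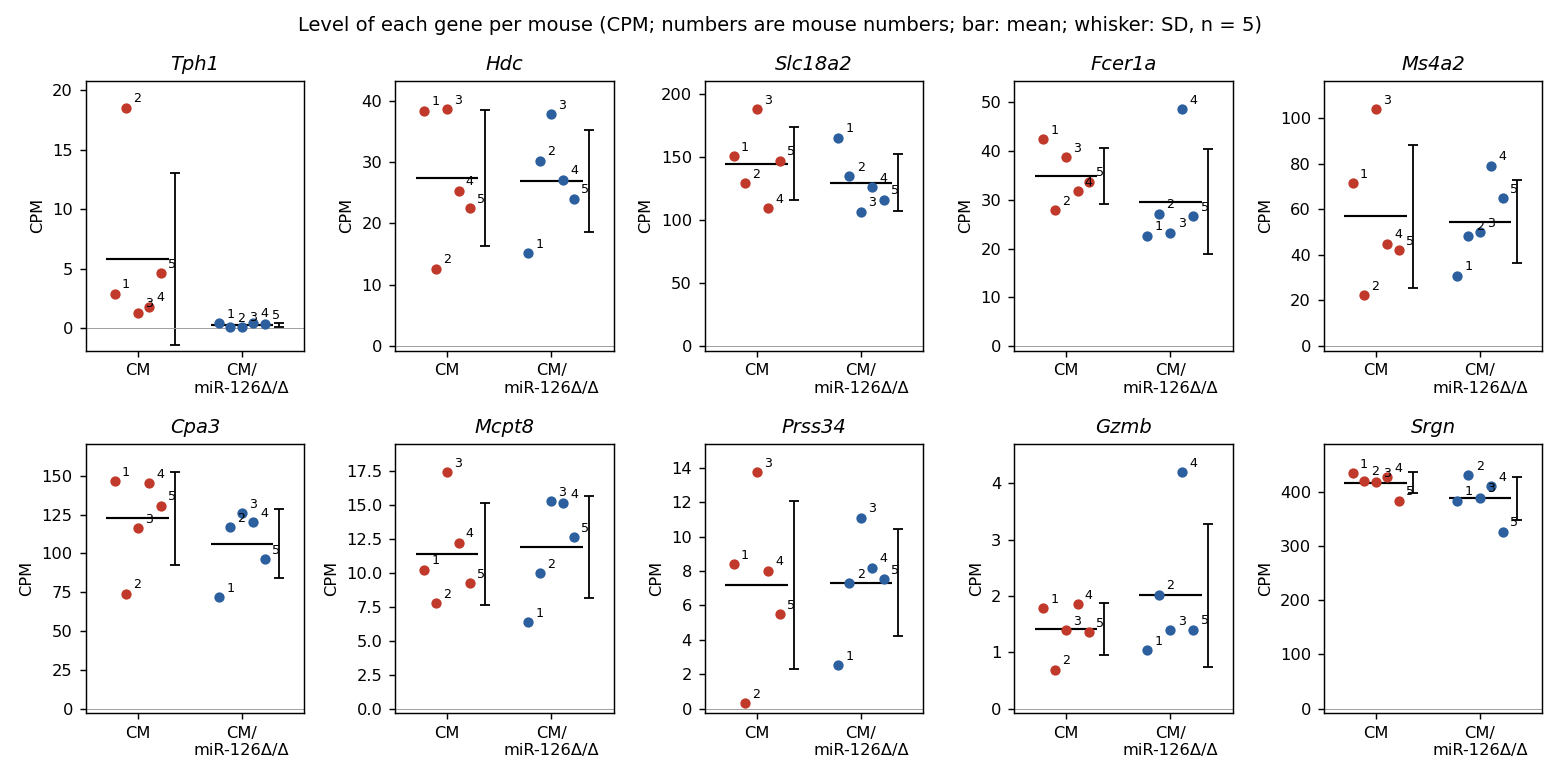
Level of each of the 10 genes in every mouse, in CPM on linear axes, with CM mice in red and CM/miR-126Δ/Δ mice in blue. Small numbers are mouse numbers, the horizontal bar is the mean and the whisker the SD (n = 5). Tph1 is the panel without overlap, with CM mouse 2 at 18.5 CPM, and in the panels of Hdc, Ms4a2, Prss34 and Gzmb the same mouse is the lowest of all 10.

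The other enzymes and carriers of serotonin are given next. Of the 19 genes of the serotonin handling list, 19 were fitted and 0 met the cutoffs, which 0.288% of all genes did, so a count of 0 is no result about the list. Of the 19, 14 had a negative difference, with a median of -0.13 beside -0.01 over all genes fitted. Ddc, the enzyme after Tph1, was at 5.72, 0.496, 3.32, 5.98 and 5.12 CPM in CM mice 1 to 5 and at 1.37, 1.94, 1.70, 7.13 and 4.36 CPM in CM/miR-126Δ/Δ mice 1 to 5. The groups overlapped, and CM mouse 2, the highest in Tph1, was the lowest of all 10 in Ddc. Tph2, the neuronal enzyme, and Slc6a4, the serotonin transporter of the plasma membrane, each had 7 reads over all 10 libraries. Maoa, which degrades serotonin, was at 11.98 ± 2.14 CPM among CM mice and 10.4 ± 0.668 CPM among CM/miR-126Δ/Δ mice (SD, n = 5). Maob, the other amine oxidase, was at 2.60, 0.628, 1.19, 1.18 and 2.08 CPM in CM mice and at 0.668, 0.404, 0.827, 1.35 and 0.247 CPM in CM/miR-126Δ/Δ mice. Its groups overlapped, and its difference of -1.14 ± 0.441 (log2, SE) did not meet the cutoffs (adjusted p = 0.746, edgeR). Slc22a3, a low-affinity amine carrier, was the most abundant gene of this list at 318 CPM in both genotypes.

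Hdc, which makes histamine from histidine, did not follow Tph1. It was at 38.4, 12.6, 38.6, 25.3 and 22.5 CPM in CM mice 1 to 5 and at 15.1, 30.2, 37.8, 27.2 and 24.0 CPM in CM/miR-126Δ/Δ mice 1 to 5. The groups overlapped over most of their range, with CM mouse 2 and CM/miR-126Δ/Δ mouse 1 lowest. The fitted difference was -0.03 ± 0.273 (log2, SE). Of the 9 genes of histamine handling, 8 had reads (Hrh3 had none) and 0 met the cutoffs, which at 0.288% of all genes fitted is no result for 8 genes, with a median difference of 0.0038. Hnmt, which inactivates histamine by methylation, was at 9.79 ± 0.756 CPM among CM mice and 8.43 ± 1.47 CPM among CM/miR-126Δ/Δ mice (SD, n = 5).

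Slc18a2 was at 151, 129, 188, 109 and 147 CPM in CM mice and at 165, 135, 107, 125.9 and 116 CPM in CM/miR-126Δ/Δ mice. It was thus well expressed in each mouse where Tph1 was near the limit of detection, and its groups overlapped. The fitted difference was -0.16 ± 0.135 (log2, SE). Snora19, Mir3084-1 and Mir3084-2 are annotated within Slc18a2 on the opposite strand. Use of the strand in counting is not given in the sources used here, so their reads cannot be told apart from those of Slc18a2.

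Both receptor chains overlapped between the genotypes. Fcer1a, the chain that binds IgE, was at 42.4, 27.8, 38.8, 31.7 and 33.7 CPM in CM mice and at 22.7, 27.2, 23.2, 48.5 and 26.6 CPM in CM/miR-126Δ/Δ mice, with a fitted difference of -0.23 ± 0.187 (log2, SE). Of the CM/miR-126Δ/Δ mice, 4 were below every CM mouse and mouse 4 was above all of them. Without that mouse the fitted difference of Fcer1a was -0.47. Ms4a2, the signal-amplifying beta chain, was at 71.3, 22.3, 104, 44.9 and 42.0 CPM in CM mice and at 30.8, 48.3, 49.98, 79.1 and 64.8 CPM in CM/miR-126Δ/Δ mice. Its spread within CM covered all values of CM/miR-126Δ/Δ, and the fitted difference was -0.06 ± 0.326 (log2, SE). Fcer1g, the shared gamma chain, was at 23.4 ± 5.00 CPM and 20.6 ± 5.02 CPM (SD, n = 5). Of the 23 genes of IgE receptor signalling, 23 were fitted and 0 met the cutoffs (0.288% of all genes fitted did, so the 0 is no result about the list), 20 had a negative difference, and the median was -0.13, beside -0.01 over all genes fitted. Plcg2, the most abundant of them, was at 365 ± 21.1 CPM among CM mice and 360.0 ± 31.4 CPM among CM/miR-126Δ/Δ mice.

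The 4 proteases differed in level and in how much they varied. Cpa3, a mast cell carboxypeptidase, was at 146, 74.0, 116, 145 and 131 CPM in CM mice and at 71.7, 117, 125.9, 120.1 and 96.4 CPM in CM/miR-126Δ/Δ mice. Mcpt8, a basophil granule protease, was at 10.2, 7.77, 17.4, 12.2 and 9.21 CPM in CM mice and at 6.38, 9.97, 15.2, 15.1 and 12.6 CPM in CM/miR-126Δ/Δ mice. In both genes CM mouse 2 was the lowest CM mouse and CM/miR-126Δ/Δ mouse 1 the lowest of its genotype. Prss34, a basophil tryptase-like protease, was at 8.39, 0.330, 13.8, 8.03 and 5.48 CPM in CM mice and at 2.52, 7.31, 11.1, 8.20 and 7.53 CPM in CM/miR-126Δ/Δ mice. The value of CM mouse 2 came from 10 reads, against 166 to 336 reads in the other CM mice. Gzmb, the cytotoxic granule protease granzyme B, was at 1.79, 0.694, 1.39, 1.85 and 1.35 CPM in CM mice and at 1.04, 2.02, 1.39, 4.197 and 1.40 CPM in CM/miR-126Δ/Δ mice, where mouse 4 stood above the rest. The fitted differences were -0.21 ± 0.175 for Cpa3, 0.06 ± 0.240 for Mcpt8, 0.03 ± 0.554 for Prss34 and 0.50 ± 0.369 for Gzmb (log2, SE). The value of Gzmb rested on CM/miR-126Δ/Δ mouse 4 and was 0.059 without it. That of Prss34 was -0.28 without CM mouse 2 and 0.41 without CM mouse 3. Mir7007 is annotated within Cpa3 and Mir6949 within Mcpt8.

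Srgn was the most even of the 10. It was at 434, 419.9, 417, 427 and 383 CPM in CM mice and at 383, 431, 389, 409.8 and 326 CPM in CM/miR-126Δ/Δ mice, a highest value 1.33 times the lowest. The groups overlapped, and the fitted difference was -0.10 ± 0.0778 (log2, SE). Over the 9 genes other than Tph1, 0 met the cutoffs, adjusted p was between 0.765 and 0.989 (edgeR quasi-likelihood test, Benjamini-Hochberg over all genes fitted), and all 9 overlapped between the genotypes. As 0.288% of all genes fitted met the cutoffs and 0.528% were fully separated with CM/miR-126Δ/Δ lower, these counts are no result about the 9 genes. The widest standard error, 0.554 for Prss34, leaves room for sizeable differences in the most variable of them that 5 mice per genotype could not show. The median difference of all 10 genes was -0.08, with 7 of 10 negative, beside -0.01 over all genes fitted.

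**Figure D2:**
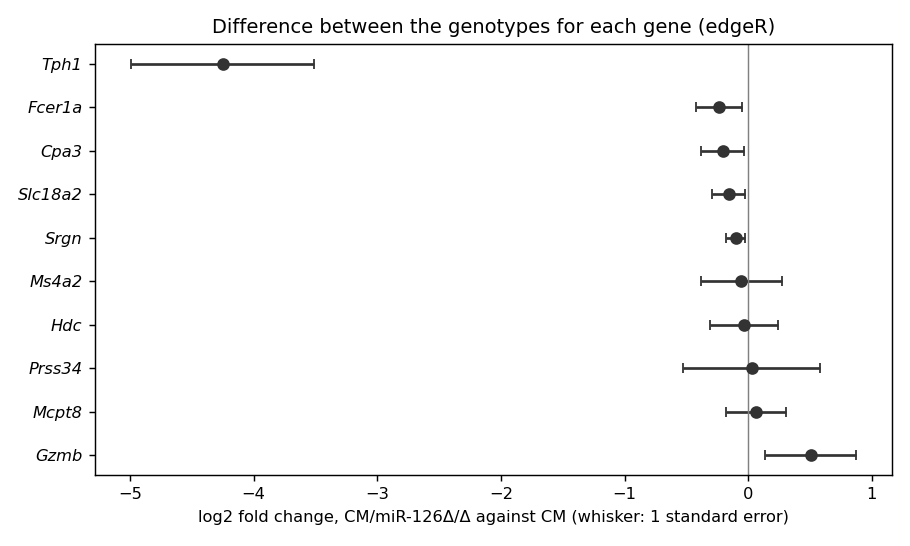
Fitted log2 difference of CM/miR-126Δ/Δ against CM for each of the 10 genes, with whiskers of 1 standard error. Tph1 lies at -4.25, and the other 9 lie between -0.23 and 0.50. Tph1 was chosen with this difference known.

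Compared per length of exon, the order of the 10 genes over all 10 mice was Srgn at 234 ± 19.1 RPKM, Cpa3 at 78.7 ± 18.1, Slc18a2 at 36.1 ± 6.79, Fcer1a at 31.4 ± 8.37, Ms4a2 at 19.8 ± 8.63, Mcpt8 at 13.9 ± 4.22, Hdc at 11.3 ± 3.86, Prss34 at 5.97 ± 3.17, Gzmb at 1.13 ± 0.632 and Tph1 at 0.646 ± 1.18 RPKM (SD, n = 10). Among neighbours in this order, the ranges of Srgn and Cpa3 were apart and those of every other pair of neighbours overlapped. Within mice, the order was the same in each of the 10 for Cpa3 over Slc18a2, Fcer1a over Ms4a2 and Hdc over Prss34. Slc18a2 was above Fcer1a in 7 of 10 mice, and Ms4a2 above Mcpt8, Mcpt8 above Hdc and Gzmb above Tph1 in 8 of 10. Tph1 had a mean of 1.23 RPKM among CM mice, beside 0.936 RPKM for Gzmb, and of 0.0631 RPKM among CM/miR-126Δ/Δ mice, beside 1.33 RPKM for Gzmb. That the mean of Tph1 was the higher in CM rests on CM mouse 2, at 3.90 RPKM. Without it the mean of Tph1 was 0.562 RPKM, and Gzmb was at 0.895 RPKM or more in each of the other 4 CM mice. In CM mouse 5 as well, Tph1 was above Gzmb, at 0.979 against 0.895 RPKM.

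Much of the variation among the other genes lay between mice of the same genotype, and CM mouse 2 and CM/miR-126Δ/Δ mouse 1 were at its low end. CM mouse 2 was the lowest CM mouse for 7 of the 10 genes and CM/miR-126Δ/Δ mouse 1 the lowest of its genotype for 7. For 6 of the 10 genes these mice held the lowest and second lowest place of all 10 mice. Against the median of the other 4 CM mice, CM mouse 2 was 24.8 times lower in Prss34, 2.61 times lower in Ms4a2, 2.52 times lower in Hdc, 2.29 times lower in Gzmb and 1.86 times lower in Cpa3. Its Slc18a2 and Srgn were 1.15 and 1.01 times lower, close to the other CM mice. Its Tph1 was 7.85 times higher. Leaving out both mice together gave a Tph1 difference of -3.30 (log2).

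As deviations from the mean of each genotype, over the same 10 libraries, Hdc and Prss34 had the highest Pearson r of the pairs, 0.90, with a Spearman rho of 0.82. Without CM mouse 2 this r was 0.90, and Mcpt8 with Prss34 was then higher, at 0.94 (0.73 with it). Mcpt8 also varied with Ms4a2 (r = 0.81) and Hdc (r = 0.76). By rho, Hdc with Ms4a2 was highest, at 0.83. Cpa3 with Prss34 (r = 0.85), Ms4a2 with Prss34 (r = 0.85), Hdc with Cpa3 (r = 0.83) and Hdc with Ms4a2 (r = 0.83) were similar, and these became 0.65, 0.77, 0.67 and 0.69 without CM mouse 2. Fcer1a varied most like Gzmb (r = 0.88, and 0.87 without CM mouse 2). Both deviated most in CM/miR-126Δ/Δ mouse 4, at 0.77 and 1.21 (log2), and r without that mouse was not computed. For pairs with Slc18a2 or Srgn, r lay between -0.31 and 0.40. Without CM mouse 2 it lay between -0.69 (Slc18a2 with Cpa3) and 0.50 (Gzmb with Srgn). Tph1 ran opposite to Prss34 (r = -0.89) and Hdc (r = -0.83), which became -0.65 and -0.64 without CM mouse 2. These values describe 45 pairs of genes that share libraries and depth, carry no test, and for Tph1 rest in part on 1 mouse and on CM/miR-126Δ/Δ levels of a few reads.

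**Figure D3:**
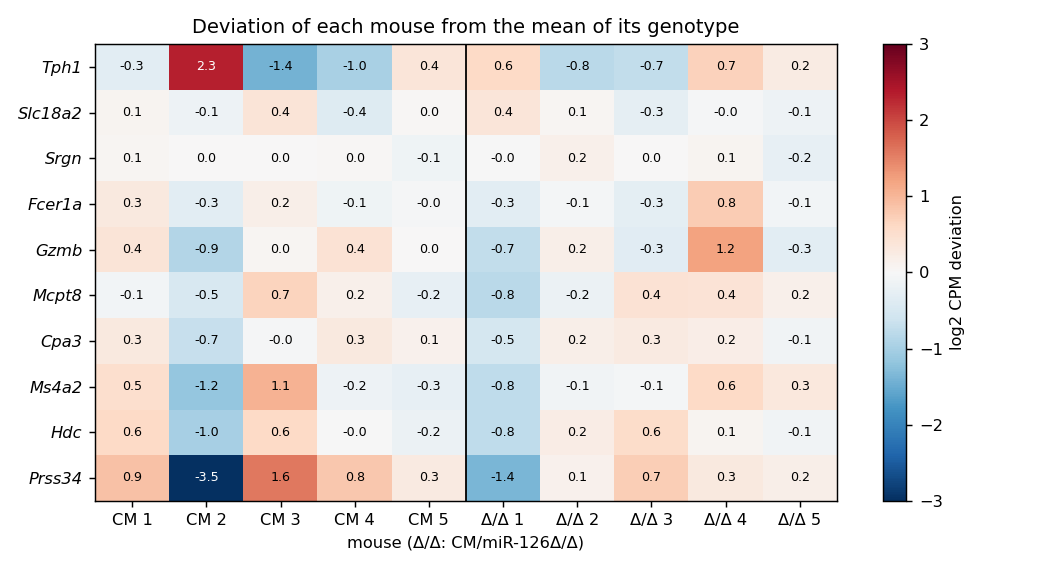
Deviation of each mouse from the mean of its genotype, in log2 CPM, for the 10 genes (rows) in the 10 mice (columns), with red above and blue below the mean. CM mouse 2 is 2.33 above in Tph1 and 3.5 below in Prss34, and CM/miR-126Δ/Δ mouse 1 is below in Hdc, Ms4a2, Mcpt8, Gzmb and Prss34. Slc18a2 and Srgn are pale throughout.

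The genes whose levels over the 10 mice were most like those of Tph1 were Trmt1 (r = 0.98), Cxxc1 (0.94), Ankrd13b (0.94), Brd2 (0.93) and Tbrg4 (0.92), among 13441 genes with at least 10 reads in at least 5 libraries. Without CM mouse 2 these were 0.96, 0.91, 0.92, 0.91 and 0.85. These values include the genotype contrast on which Tph1 was chosen, and Trmt1, Cxxc1 and Ankrd13b were each lower in every CM/miR-126Δ/Δ mouse than in any CM mouse. Trmt1, which encodes a transfer RNA methyltransferase, was at 69.6 CPM among CM mice and 61.7 CPM among CM/miR-126Δ/Δ mice. Brd2, which encodes a bromodomain protein, was at 441 and 374 CPM. As deviations from the genotype means the closest were Amigo3 (r = 0.95), Camkk1 (0.93), Snord100 (0.93), Tnfsf11 (0.92) and Tmc6 (0.92). Without CM mouse 2 these were 0.86, 0.86, 0.92, 0.82 and 0.81. No other mast cell or basophil gene of the 10 was among either set. These are the highest values of a search over many genes in 10 libraries and are given without a test.

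Lists of related genes and of markers of other cell types were then counted in the same fit. The 15 lists named 226 genes, of which 224 were in the table and 215 had reads. Of these, 5 met the cutoffs, all 5 lower in CM/miR-126Δ/Δ, beside 0.288% of all genes fitted (0.0960% lower), with adjusted p of at least 0.604 for every gene of the lists (edgeR quasi-likelihood test, Benjamini-Hochberg). This direction did not hold in every fit that left out 1 mouse. Without CM mouse 3, 2 of the 7 list genes that met the cutoffs were higher, and without CM/miR-126Δ/Δ mouse 4, 1 of 11. The median difference of the genes listed was -0.08, beside -0.01 over all genes fitted. The lists were written with results of these data known, so their counts are descriptions. The 5 genes were Il7r, Rag2, Siglech, Cox6a2 and Ccl24. Of these, 0 stood in the lists of serotonin, histamine, IgE receptor, mast cell, basophil or regulator genes. With the replicate number as a block, 10 list genes met the cutoffs, all lower in CM/miR-126Δ/Δ. In that fit 115 of all 18747 genes met them, 66 higher and 49 lower. The list genes added to the 5 were Mcpt1 of the mast cell list, Il4 and Cd69 of the basophil list, Slc35d3 and Igll1.

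Of the mast cell list, 21 of 23 genes had reads, 0 met the cutoffs, and the median difference was -0.13, beside 0.288% and -0.01 over all genes fitted. At that share, 0 of 21 is no result about the list. With the replicate number as a block, 1 of the 21 met the cutoffs, Mcpt1, beside 115 of all 18747 genes in that fit. Kit was its most abundant gene at 894 CPM, and it is also a marker of LSK cells. Without Kit, the remaining 20 genes summed to 507, 357, 629, 496 and 467 CPM in CM mice 1 to 5 and to 311, 422, 569.5, 487 and 499 CPM in CM/miR-126Δ/Δ mice 1 to 5. Ctsg, which is also on the neutrophil and granulocyte-monocyte progenitor list, made up more of this sum than any other gene, at 211 CPM in CM mouse 2 and 167 CPM in CM/miR-126Δ/Δ mouse 1. With Ctsg left out as well, the 19 other genes summed to 146 CPM in CM mouse 2, against 199 to 271 CPM in the other CM mice, and to 144 CPM in CM/miR-126Δ/Δ mouse 1, against 167 to 237 CPM in the others of that genotype. Both mice were the lowest of their genotypes in either sum. Several genes of the mast cell list were absent or low. Tpsab1 and Mcpt9 had no reads, and Mrgprb1 had 1 read in all. Mcpt4 was at most 0.182 CPM and Tpsb2 at most 0.636 CPM, from 21 reads in CM mouse 1. That Tpsab1 and Mcpt9 had no reads is not taken as a measure of mature mast cells. Cma1, a chymase of mature connective tissue mast cells, was at 1.15, 2.54, 0.123, 0.202 and 0.396 CPM in CM mice and at 0.0742, 0.444, 0.522, 0.792 and 0.206 CPM in CM/miR-126Δ/Δ mice. It was highest in CM mouse 2, as Tph1 was. The part of such cells in the levels of the 10 genes was not tested.

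Mcpt1, a mucosal mast cell protease, was at 30.8, 1.02, 36.02, 36.4 and 55.4 CPM in CM mice and at 3.08, 3.15, 3.96, 32.1 and 12.6 CPM in CM/miR-126Δ/Δ mice. CM mouse 2 and 3 of the CM/miR-126Δ/Δ mice were low, and the groups overlapped. The difference of -1.54 ± 0.755 (log2, SE) did not meet the cutoffs (adjusted p = 0.764, edgeR). With the replicate number as a block, Mcpt1 met them, lower in CM/miR-126Δ/Δ. Mcpt2, a close copy of Mcpt1 on chromosome 14, was low in the same mice, and reads could be split between them.

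Of the basophil list, 19 of 19 genes had reads, 0 met the cutoffs and the median difference was -0.11, beside 0.288% and -0.01 over all genes fitted, so the 0 is no result about the list. Cd200r3, a receptor of basophils and mast cells, was at 10.96, 2.78, 10.6, 9.14 and 7.53 CPM in CM mice and at 5.01, 7.06, 6.01, 11.9 and 9.84 CPM in CM/miR-126Δ/Δ mice, again lowest in CM mouse 2 and, within its genotype, in CM/miR-126Δ/Δ mouse 1. Il4, a cytokine of basophils and mast cells, was at 2.11 ± 0.846 CPM among CM mice and 1.22 ± 0.688 CPM among CM/miR-126Δ/Δ mice (SD, n = 5). It did not meet the cutoffs in this fit. With the replicate number as a block, Il4 and Cd69 of this list met them, both lower in CM/miR-126Δ/Δ. In that fit 115 of all 18747 genes met them, 49 of these lower. Csf2rb, a general cytokine receptor chain, was the most abundant gene of the list at 167 CPM. The sum of the list was highest in CM mouse 2, at 710.2 CPM, unlike Cd200r3.

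The regulators of these lineages included no gene that met the cutoffs. Of 22, 22 had reads and 0 met them, with a median difference of -0.03. As 0.288% of all genes fitted met the cutoffs, a count of 0 in a list of this size is no result about the list. Gata2 was at 201 ± 32.1 CPM among CM mice and 218 ± 19.0 CPM among CM/miR-126Δ/Δ mice, Gata1 at 22.9 ± 4.23 and 21.9 ± 3.64 CPM, and Mitf at 12.2 ± 2.59 and 13.1 ± 0.554 CPM (SD, n = 5). CM mouse 2 was the lowest of all 10 mice in Gata2, at 152 CPM, and in Mitf, at 7.73 CPM, but the highest in Cebpb, at 28.9 CPM against 11.2 to 22.5 CPM in the others. The sum of the 22 regulators in CM mouse 2, 3474 CPM, lay within the range of the other CM mice, 3418 to 3619 CPM. Lmo2 was the most abundant of the list at 533 CPM.

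Markers of other lineages differed between these mice as well. The neutrophil and granulocyte-monocyte progenitor list (17 of 17 genes with reads, 0 meeting the cutoffs, median difference 0.16) summed to 3193, 2317, 4288, 3461 and 3052 CPM in CM mice 1 to 5 and to 1936, 3000, 5075, 2997 and 3517 CPM in CM/miR-126Δ/Δ mice 1 to 5. CM mouse 2 and CM/miR-126Δ/Δ mouse 1 were the lowest of their genotypes. Mpo, the myeloperoxidase of myeloid granules, was the most abundant gene of this list at 2172 CPM. Elane, neutrophil elastase, was at 24.0 CPM in CM mouse 2, against 71.1 to 106 CPM in the other CM mice, and at 36.2 CPM in CM/miR-126Δ/Δ mouse 1. The erythroid list (10 of 13 genes with reads, Hba-a1, Hba-a2 and Hbb-bt at 0, 0 meeting the cutoffs, median difference 0.03) was lowest in CM mouse 2 at 431 CPM, against 531 to 756 CPM in the other 9 mice, with Car2 the most abundant, but CM/miR-126Δ/Δ mouse 1 was not low in it, at 622 CPM. In the T and NK cell list, CM mouse 2 and CM/miR-126Δ/Δ mouse 1 were the lowest of their genotypes, at 49.7 and 52.9 CPM. Nkg7 made up most of both sums, at 35.3 and 41.5 CPM, and both mice were also lowest of their genotypes in it. The low sums are thus largely those of 1 gene and are not read as a trait of T or NK cells. The megakaryocyte and platelet list went the other way. There CM/miR-126Δ/Δ mouse 1 was the highest of its genotype at 882 CPM, and CM mouse 2, at 888 CPM, was below CM mouse 5 at 941 CPM. Conversely, Cd69 was at 65.6 CPM in CM mouse 2 and at 11.5 to 33.2 CPM elsewhere. Against 0.288% of all genes fitted, the counts of 0 in these lists are no result about them. The part of these levels in the differences between mice was not tested.

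**Figure D4:**
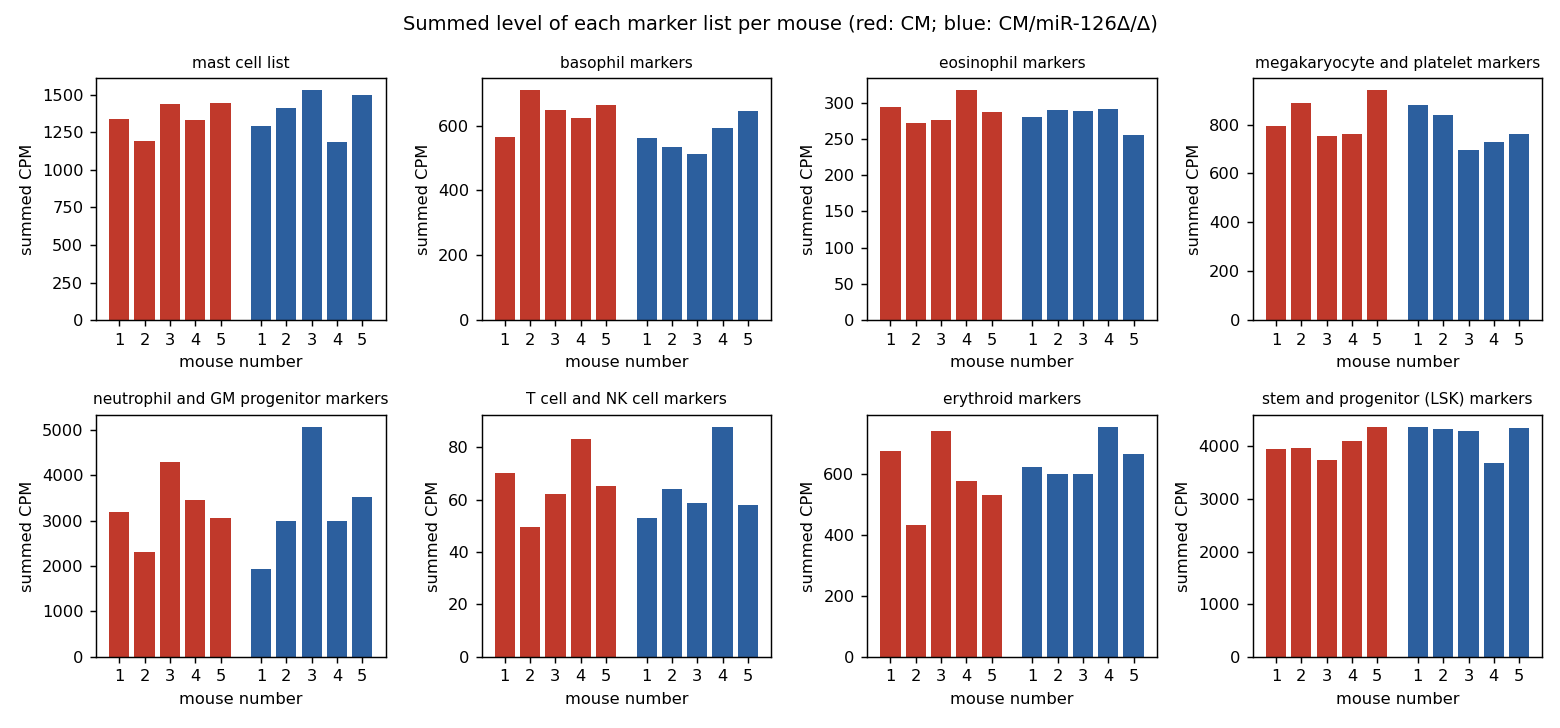
Summed CPM of 8 marker lists in each mouse, with CM mice in red and CM/miR-126Δ/Δ mice in blue, all axes from 0. CM mouse 2 and CM/miR-126Δ/Δ mouse 1 are the lowest of their genotypes in the neutrophil and progenitor list (2317 and 1936 CPM). The LSK marker list is lowest in CM/miR-126Δ/Δ mouse 4 at 3681 CPM.

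The 5 list genes that met the cutoffs belonged to lymphoid, plasmacytoid dendritic cell and eosinophil lists. Those were 1 of 11 fitted genes of the ILC2 list (median difference -0.12), 1 of 14 of the B and plasma cell list (-0.33), 2 of 9 of the plasmacytoid dendritic cell list (-0.63) and 1 of 13 of the eosinophil list (-0.30), beside 0.288% and a median of -0.01 over all genes fitted. Il7r, the interleukin 7 receptor of lymphoid progenitors and innate lymphoid cells, was at 10.3, 28.2, 15.3, 17.3 and 18.4 CPM in CM mice and at 8.86, 9.85, 8.88, 14.4 and 4.24 CPM in CM/miR-126Δ/Δ mice. Its difference was -0.95 ± 0.280 (log2, SE). Il7r no longer met the cutoffs without CM mouse 2, without CM/miR-126Δ/Δ mouse 1, or in the fit with robust dispersions. Siglech, a lectin of plasmacytoid dendritic cells, was at 5.15, 4.99, 10.1, 4.17 and 3.86 CPM in CM mice and at 3.93, 2.95, 3.13, 3.21 and 1.73 CPM in CM/miR-126Δ/Δ mice. Its difference was -0.91 ± 0.272, and it no longer met the cutoffs without CM mouse 3 or without CM/miR-126Δ/Δ mouse 2 or 5. Rag2 of the lymphoid recombinase (-0.69 ± 0.231), Cox6a2, a cytochrome oxidase subunit (-1.12 ± 0.366), and Ccl24, the chemokine eotaxin-2 (-1.53 ± 0.503), each missed the cutoffs in at least 6 of the 10 fits that left out 1 mouse. Ccl24 was at 5.55 CPM in CM mouse 5 and at 0.859 to 1.92 CPM in the other CM mice. Genes annotated across Rag2 (B230118H07Rik) and Cox6a2 (Itgad) could share their reads.

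**Figure D5:**
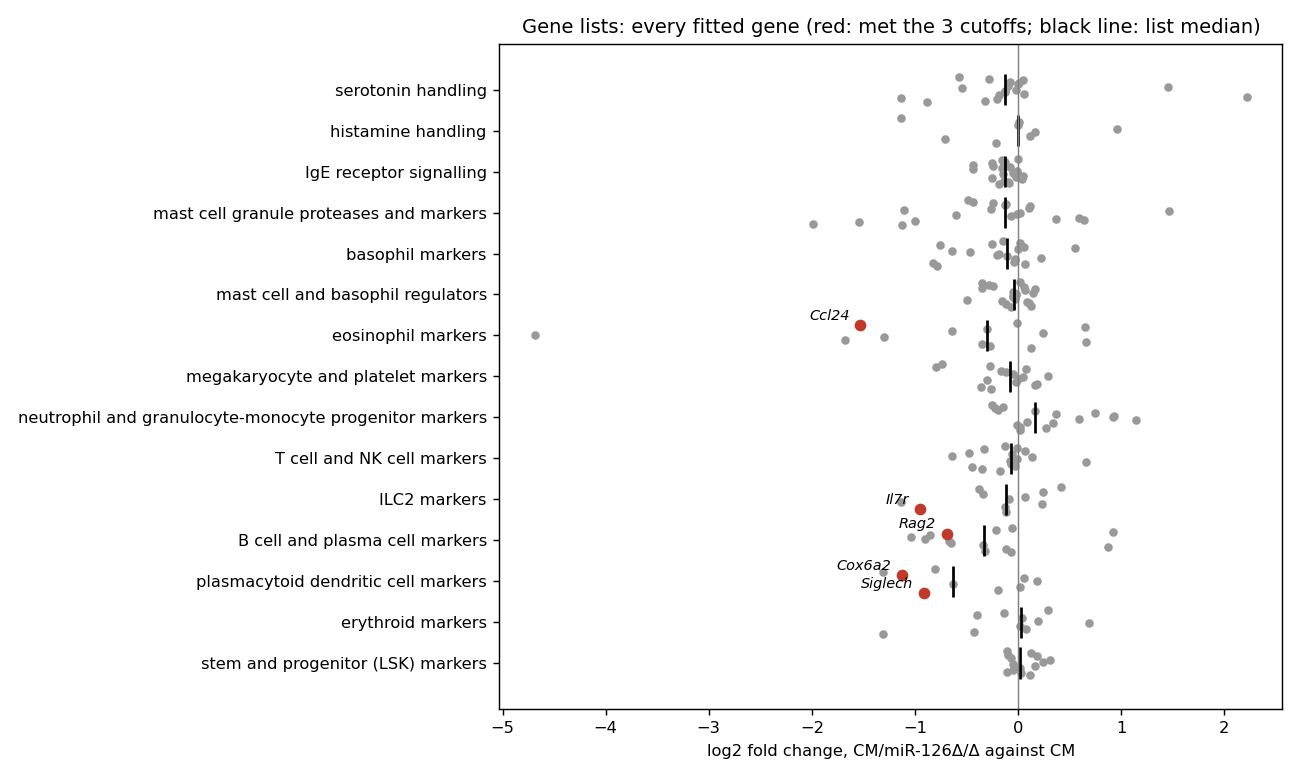
Log2 difference of CM/miR-126Δ/Δ against CM for every fitted gene of the 15 lists (1 point per gene), with the list median as a black line and genes that met the cutoffs in red. The 5 red points lie between -1.53 and -0.69, and the serotonin, histamine, IgE receptor, mast cell, basophil and regulator lists hold none.

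Other lists held no gene that met the cutoffs, which against 0.288% of all genes fitted is likewise no result about them. These were the megakaryocyte and platelet list (16 of 17 genes with reads, median -0.08, Nbeal2 most abundant), the T and NK cell list (16 genes with reads, median -0.07, Nkg7 most abundant), and the LSK marker list (14 of 14, median 0.02, Cd34 most abundant at 909 CPM). With the replicate number as a block, Slc35d3 of the megakaryocyte and platelet list met the cutoffs, beside 115 of all 18747 genes in that fit. Platelets carry serotonin taken up from plasma. Pf4, a platelet granule chemokine, was at 2.80 ± 0.914 CPM among CM mice and 3.15 ± 1.94 CPM among CM/miR-126Δ/Δ mice. Gzma and Prf1, which accompany Gzmb in cytotoxic lymphocytes, were at most 0.161 and 0.686 CPM in any mouse. CM/miR-126Δ/Δ mouse 4, the highest in Gzmb, was also the highest of all 10 mice in the summed T and NK cell list, at 87.8 CPM against 49.7 to 83.1 CPM in the others, and in Cd3e, at 2.61 CPM. Its Prf1 was at 0.594 CPM. LSK cells were sorted as lineage-negative (Lin-), and antibodies to T and NK cells are among those the study lists for flow cytometry. The part of such cells in the Gzmb of CM/miR-126Δ/Δ mouse 4 was not tested.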

How the data were processed

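LSK cells of 10 mice were analysed as 1 library each, from stranded total RNA libraries made after ribosomal RNA depletion. Reads were trimmed and aligned to mm10 with TopHat2 by the authors, and reads per RefSeq gene were then counted with HTSeq 0.6.1p1, per the submitters' processing notes and the study's methods. The deposited counts are whole reads per gene, without normalization, for 25078 genes. A second deposited table, which holds the same counts scaled by 1 constant per library and is not divided by length, was not used here. Genotypes and mouse numbers came from the sample titles.

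From the counts, 18747 genes with at least 1 read entered the two-sided quasi-likelihood test of edgeR 4.0.16 (R 4.3.3), run as in edgeR 3 with TMM factors and no term but genotype, and p was adjusted by Benjamini-Hochberg. CPM and RPKM were computed from counts, TMM-scaled library sizes and deposited exon lengths. The SE is the size of the log2 difference divided by the square root of F. Likeness between genes used log2 CPM with a prior count of 2. Libraries were compared by chi-square per degree of freedom, which was at least 9.52 for any pair, so none was deposited more than once. Rn45s, a ribosomal RNA precursor, held 14.8% to 22.6% of the reads. The fit was tested on simulated data.

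The 10 genes and the 15 lists were chosen with earlier results of these data known, including the study's table of differing genes, and are no independent support for any difference. Genes named are the 10 genes, list genes that met the cutoffs or else the most abundant gene of a list, the 5 genes most like Tph1 by each measure, and markers used to check the sort. Cd69, Cd200r3, Mcpt1 and some other list genes were named after their values were seen.

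Alternatives were RLE factors, DESeq2 1.42.0, filterByExpr, a fit limited to genes of mean RPKM 1 or more, robust dispersions, the newer quasi-likelihood of edgeR 4, a replicate block, each mouse left out, no requirement on RPKM, an adjusted p under 0.05 and a prior count of 2. Those added after seeing the data left out CM mouse 2 with CM/miR-126Δ/Δ mouse 1, or Rn45s, counted the list genes under the other tools, or gave likeness without CM mouse 2. Nothing in the labels marks batch or sex of a mouse, and neither was used.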

Additional observations from a re-analysis of the deposited data

Results flagged for a closer look

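Values were looked at in 62 groups of 5 mice. These groups included the 10 genes, the list genes that met the cutoffs and the list sums, in each genotype. Of the 62, 6 held a mouse far from the other 4 by Dixon's criterion, where chance would give about 3.1. Tph1 was at 18.5 CPM in CM mouse 2, with the other CM mice at 1.31 to 4.66 CPM. Fcer1a was at 48.5 CPM in CM/miR-126Δ/Δ mouse 4, with the others of its genotype at 22.7 to 27.2 CPM. Ccl24 was at 5.55 CPM in CM mouse 5, with the other CM mice at 0.859 to 1.92 CPM. Siglech was at 10.1 CPM in CM mouse 3, with the other CM mice at 3.86 to 5.15 CPM. The summed mast cell and basophil regulators were at 3619 CPM in CM mouse 5, with the other CM mice at 3418 to 3474 CPM. The summed LSK markers were at 3681 CPM in CM/miR-126Δ/Δ mouse 4, with the others of its genotype at 4297 to 4377 CPM. The cause of these values was not tested.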

How the results depend on the processing

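The fitted difference of Tph1 ranged from -4.49 to -3.12 (log2) over 22 settings, a description only, since its direction led to its choice. Near 0 the sign was not stable. Hdc, Ms4a2, Mcpt8 and Prss34 kept their sign in 17, 18, 19 and 17 of 22 settings. Without CM/miR-126Δ/Δ mouse 4, Gzmb went from 0.50 to 0.059 and Fcer1a from -0.23 to -0.47. Of all genes fitted, 54 met the cutoffs. This became 111 with no requirement on RPKM, 2 at an adjusted p under 0.05 (beside 1239 genes at an unadjusted p under 0.05), and 33 to 128 when each mouse was left out (128 without CM mouse 3, 85 without CM/miR-126Δ/Δ mouse 1, 94 without mouse 4 and 33 without mouse 5). The 5 list genes became 2 with filterByExpr, 2 with only genes of mean RPKM of at least 1, 3 with robust dispersions, and 1 to 11 when each mouse was left out. The list count also passed 1.5 times without CM mice 4 (3) and 5 (2) and without CM/miR-126Δ/Δ mice 1, 2 and 5 (1 each) and 4 (11). The count over all genes was 54 with RLE factors, 64 with DESeq2, 43 with filterByExpr, 52 with only genes of mean RPKM of at least 1, 57 with the quasi-likelihood of edgeR 4, 44 with robust dispersions and 58 without Rn45s. The list count was 4, 6 and 4 with RLE factors, DESeq2 and edgeR 4. No list gene had an adjusted p under 0.05 (edgeR, lowest 0.604), and the list count was not made with no requirement on RPKM or without Rn45s. The cause was not tested.

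With the replicate number as a block, 115 genes met the cutoffs, 66 higher and 49 lower, and 50 of the 54 were among them. An adjusted p under 0.05 was reached by 20 genes. The 10 list genes that met them were the 5 above and Mcpt1 of the mast cell list, Il4 and Cd69 of the basophil list, Slc35d3 and Igll1, all lower in CM/miR-126Δ/Δ. The labels do not say what a number marks, though same-numbered mice have neighbouring library numbers. The r of same-numbered mice was over 0.1 in 4 of 5 pairs. As this was not every pair, the fit without the block was kept, and its errors and p-values leave out any such pairing. Same-numbered mice deviated together at r = 0.176, 0.164, 0.430, 0.292 and -0.00355 for numbers 1 to 5 (mean 0.211, beside -0.0535 between different numbers), and 3 of 5 CM and 2 of 5 CM/miR-126Δ/Δ mice correlated best with their own number. P-values measure the spread between these mice. Tph1 in CM/miR-126Δ/Δ rests on 38 reads in 5 libraries, so the size of its difference is imprecise.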

Other observations

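Rnase2a, which encodes a ribonuclease and stands in the eosinophil list, held 65 reads in CM mouse 5 (2.15 CPM). It held 3, 4, 2 and 5 reads in CM mice 1 to 4. It held 2 reads in CM/miR-126Δ/Δ mouse 2 and 0 reads in the other 4 mice of that genotype. Its mean of 0.759 RPKM in CM did not meet the cutoff on level. CM mouse 5 was also the mouse with the highest Ccl24, at 5.55 CPM, and the highest Mcpt1, at 55.4 CPM, whereas Epx and Prg2, granule proteins of eosinophils, were at 0.231 and 1.35 CPM in it, within the range of the other CM mice.

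Fcer1a and Gzmb were highest in the same mouse, CM/miR-126Δ/Δ mouse 4, at 48.5 and 4.197 CPM. This mouse also had the lowest Kit of all 10, at 702 CPM, the highest Ddc, at 7.13 CPM, the highest summed T and NK cell list, at 87.8 CPM, and the highest Cd3e, at 2.61 CPM. Its Tph1, at 0.475 CPM, was the highest of its genotype but below every CM mouse.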
